A study of Mus musculus with 16 samples.

Results

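The 39 genes described here belong to the integrated stress response, the unfolded protein response and serine synthesis. They were taken as a named list, drawn up with earlier results of these data known, so counts over it are a description. The list holds 21 genes that the transcription factor ATF4 is known to control, or that act with it (the ATF4 arm). It also holds 18 genes of endoplasmic reticulum (ER) stress sensing and protein folding (the ER arm). All 39 were found by their Entrez identifiers among the 27179 genes of the count files, and all 39 passed the filter on low counts. RNA sequencing had been done on mouse neural stem and progenitor cells (NSPCs) taken from the E14.5 foetal cortices and ganglionic eminences and grown as neurospheres. Null cells (Kat7lox/lox NesCreT/+) lacked KAT7, also called HBO1, a histone lysine acetyltransferase. Intact cells (Kat7+/+ NesCreT/+) kept it, and both genotypes carried the Cre transgene driven by Nestin sequences. The cells of both conditions are listed with 3 passages and a plating density of 20000 cells per cm2. Differentiating cells had been cultured on laminin for 3 days in a medium for cortical neurons, and proliferating cells for 3 days in neurosphere medium. The response to differentiation given below thus includes the change of medium and the culture on laminin, and these cannot be told apart. This gave 4 groups of 4 libraries each: null differentiating, intact differentiating, null proliferating and intact proliferating. The cells came from 4 foetuses per genotype, and whether a foetus gave both a differentiating and a proliferating library is a point the sources used here do not give. If the 4 libraries of each group came from separate foetuses, each foetus gave both. The main fit has no term for such a pairing.

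The integrated stress response converges on the initiation factor eIF2alpha, which kinases phosphorylate upon amino acid shortage, ER stress, viral RNA or heme shortage. General translation then falls while the Atf4 mRNA is translated more, and ATF4 switches on genes for amino acid uptake, serine and asparagine synthesis and tRNA charging. The unfolded protein response starts at the ER membrane sensors PERK, IRE1alpha and ATF6, of which PERK also feeds ATF4, while IRE1alpha splices the Xbp1 mRNA and ATF6 is cleaved into a transcription factor. XBP1 and ATF6 switch on ER chaperones, so the 2 arms lean on different branches of stress signalling, measured here as mRNA. They do not separate these branches cleanly, since the ER arm also holds Eif2ak3, the gene for PERK. Neural progenitors use serine made from glucose for one-carbon units and nucleotides while they divide.

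Promoter sequences of some members carry the elements through which these factors are known to act, and the 2 arms differ in them. The arms were listed by known control or role, so this difference describes the lists. Stretches are printed for members with a C/EBP-ATF or ER stress element, except Trib3 and Herpud1. RefSeq promoter windows (250 bases before to 50 bases after each start, GRCm38.p6) were matched for 34 of the 39 genes, 19 of the ATF4 arm and 15 of the ER arm. The C/EBP-ATF element, searched as TGATGNAA on both strands, occurred in the windows of 6 of the 19 ATF4 arm genes (Slc7a11, Asns, Chac1, Pycr1, Nupr1 and Trib3) and of 1 of the 15 ER arm genes (Herpud1). It occurred in 3.97% of all 32851 windows, and in a window of 4.51% of all 27025 genes. Slc7a11 held it on both strands, 66 to 59 and 47 to 40 bases before the start. The start used for Slc7a11 lies inside the gene span given for it below, not at the outer end of that span. Capitals in the stretches below mark the element as it reads on the gene's strand, where a reverse match appears as its complement; all are printed 5′ to 3′.
Slc7a11, chr3:50443614-50443713, minus strand: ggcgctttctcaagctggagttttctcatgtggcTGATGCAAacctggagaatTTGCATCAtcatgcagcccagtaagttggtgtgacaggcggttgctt
Asns, chr6:7693210-7693269, minus strand: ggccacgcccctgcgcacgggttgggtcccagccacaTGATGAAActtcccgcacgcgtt
Chac1, chr2:119351022-119351081, plus strand: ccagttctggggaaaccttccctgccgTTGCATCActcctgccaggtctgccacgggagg
Pycr1, chr11:120643819-120643878, minus strand: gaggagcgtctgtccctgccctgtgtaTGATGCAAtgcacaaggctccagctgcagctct
Nupr1, chr7:126625551-126625610, minus strand: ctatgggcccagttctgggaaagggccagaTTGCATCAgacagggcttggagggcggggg

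The ER stress element, searched as CCAAT and CCACG with any 9 bases between them on both strands, occurred in 6 of the 15 ER arm genes (Hspa5, Hsp90b1, Calr, Dnajc3, Pdia6 and Creld2) and in 0 of the 19 ATF4 arm genes. It occurred in 0.119% of all windows and for 0.137% of all genes. Its CCACG part alone occurred in 32.8% of all windows, so only the full element was used. Hsp90b1 held the element on both strands. Capitals mark the full element, with its 9 spacer bases.
Hspa5, chr2:34771990-34772089, plus strand: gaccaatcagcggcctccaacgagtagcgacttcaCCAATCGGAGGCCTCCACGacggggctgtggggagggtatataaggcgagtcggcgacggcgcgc
Hsp90b1, chr10:86705520-86705669, minus strand: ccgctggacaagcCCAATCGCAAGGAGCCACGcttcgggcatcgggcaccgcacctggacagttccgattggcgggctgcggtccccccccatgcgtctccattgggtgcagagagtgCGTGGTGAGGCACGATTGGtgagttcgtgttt
Calr, chr8:84847052-84847111, minus strand: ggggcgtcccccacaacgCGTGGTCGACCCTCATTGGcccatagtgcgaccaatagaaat
Dnajc3, chr14:118937812-118937871, plus strand: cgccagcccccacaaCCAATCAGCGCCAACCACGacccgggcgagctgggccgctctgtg
Pdia6, chr12:17266469-17266528, plus strand: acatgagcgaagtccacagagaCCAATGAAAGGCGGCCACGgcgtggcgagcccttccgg
Creld2, chr15:88819496-88819555, plus strand: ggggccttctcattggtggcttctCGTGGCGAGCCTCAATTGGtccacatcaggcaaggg
A match is a description of the letters in these windows and shows neither that a factor binds there nor that it acts on the gene.

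Library totals were 16.8 to 47.9 M counts, and values are given as CPM (each gene's counts out of 1e6 counts, after scaling of the library totals by the trimmed mean of M values, TMM). Kat7 had 1 count in the 4 null differentiating libraries together and 8 counts in the 4 null proliferating ones, against 103 ± 3.08 CPM in intact differentiating and 139 ± 5.59 CPM in intact proliferating cells (mean ± SD, n = 4). Of 10 neural stem and progenitor markers, 0 were without counts in any group, and their summed level was 4273 to 5366 CPM in null differentiating, 2766 to 3707 CPM in intact differentiating, 6607 to 7143 CPM in null proliferating and 6664 to 7294 CPM in intact proliferating libraries. Summed microglial markers were at or below 0.699 CPM in every library. The groups differed in their other cell type markers: 10 astrocyte markers summed to 5639 to 8924 CPM in null differentiating and 1894 to 3048 CPM in intact differentiating libraries, and 10 oligodendrocyte lineage markers to 1905 to 2367 and 3653 to 7043 CPM in the same groups. Proliferating groups differed as well, without overlap: astrocyte markers summed to 2474 to 3747 CPM in null and 1260.4 to 1876 CPM in intact proliferating libraries, and oligodendrocyte lineage markers to 1769 to 2257 CPM in null and 2979.99 to 3205 CPM in intact ones, where 1 of the 10 was without counts. Cycling cell markers summed to 2305 to 2773 CPM in null and 2912 to 3402 CPM in intact proliferating libraries, and 6 mesenchyme and mural cell markers to 39.7 to 127 CPM in null and 7.42 to 12.3 CPM in intact ones. The latter sum does not stand for its whole list. By the edgeR test described below, 1 of these 6 genes was higher and 1 lower in null proliferating cells. Their median log2 fold change was -0.26 (-3.31 to 4.25). In null differentiating cells 6 of 10 neuron markers were lower and 1 higher by the same test, with a median log2 fold change of -1.41. Of 10 cycling cell markers 7 were higher and 1 lower there, with a median of 0.60. Over all genes tested, 24.3% were higher and 22.0% lower in that comparison. The part that this makeup has in the results below was not tested, and in bulk RNA a change in cell types and a change in RNA per cell cannot be told apart. Single libraries also stood apart: intact differentiating replicate 1 had 6361 CPM of 10 summed neuron markers, against 2260 to 3370 CPM in the other intact differentiating libraries.

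In proliferating cells, with TMM scaling, both arm means of every null library lay above those of every intact library. The gap was wider in the ATF4 arm than in the ER arm. An arm mean was taken in each library as the mean over members of log2 CPM less the average of the intact proliferating libraries, so it describes the arm without a test. The ATF4 arm mean was 1.33, 0.74, 0.72 and 0.70 in the null proliferating libraries, against -0.30, 0.03, 0.06 and 0.22 in the intact proliferating libraries, with no overlap. It was -0.55, -0.73, -0.88 and -0.37 in the null differentiating libraries, against -0.38, -0.80, -1.09 and -1.12 in the intact differentiating libraries, which overlapped. The ER arm mean covered a narrower range: 0.12, 0.13, 0.12 and 0.24 in null proliferating, against -0.03, 0.06, 0.06 and -0.08 in intact proliferating libraries, also with no overlap. This gap was small, and the TMM factors of the proliferating libraries ran from 0.933 to 1.05. A factor shifts a whole library, so this order can depend on the scaling, which was not tested library by library. In differentiating cells it was -0.48, -0.43, -0.36 and -0.39 in null libraries, against -0.32, 0.01, -0.23 and 0.15 in intact libraries, and here the null libraries lay below all intact ones. With TMM scaling the ER arm mean of the null libraries was thus on opposite sides of the intact libraries in the 2 conditions. That of the ATF4 arm overlapped in differentiating cells.

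**Figure D1:**
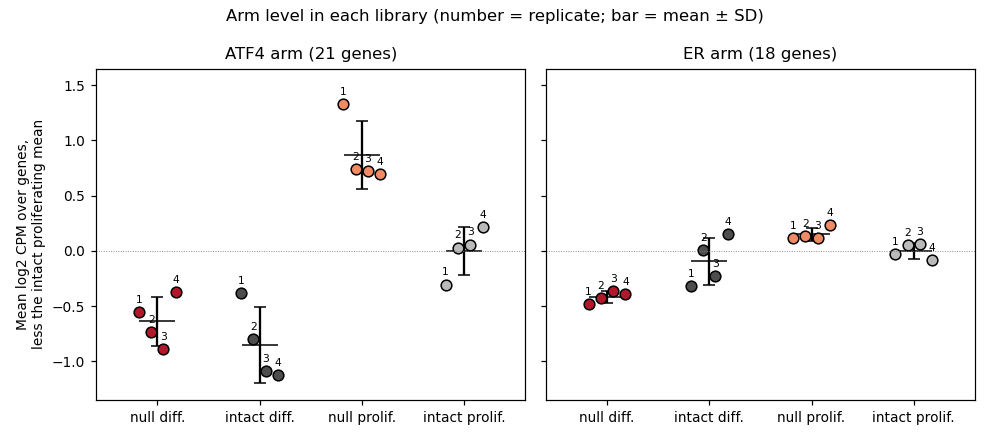
Mean log2 CPM of the 21 ATF4 arm genes and of the 18 ER arm genes in each of the 16 libraries, relative to the intact proliferating mean; numbered points are libraries, dashes group means and bars the SD over 4 libraries. The null proliferating libraries lie at 0.70 to 1.33 for the ATF4 arm, above all other libraries, and the null differentiating libraries lie at -0.48 to -0.36 for the ER arm, below all other libraries.

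Tested gene by gene with edgeR's quasi-likelihood test, 15 of the 21 ATF4 arm genes were higher and 0 lower in proliferating null cells, at a Benjamini-Hochberg adjusted p under 0.05 over all 15177 genes tested. This and the other counts of 0 given here for an arm were also 0 at an unadjusted p under 0.05 and with DESeq2. Over all these genes 38.6% passed, 19.0% higher and 19.7% lower. The median log2 fold change was 0.66 over the ATF4 arm and -0.01 over all genes, and the estimate was above 0 for all 21 members. In 17 of the 21, all null libraries lay above all intact libraries, which held for 19.2% of all genes. Of the 18 ER arm genes, 6 were higher and 2 lower, with a median of 0.15, and 6 lay above and 1 below without overlap (19.7% of all genes lay below). Null proliferating replicate 1 had the highest CPM of its group for 21 of the 21 ATF4 arm genes, while it was the highest for 23.0% of all genes, and intact proliferating replicate 1 was the lowest of its group for 16. Without null proliferating replicate 1 alone 10 ATF4 arm genes were higher, and without these 2 libraries, a pair chosen after seeing the data, 7 were higher.

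In differentiating cells the picture was different. Of the ATF4 arm, 5 genes were higher in null cells and 3 lower (edgeR, as above), while 46.4% of all genes were called, 24.3% higher and 22.0% lower. The median was 0.15, with 0.04 over all genes, and 6 genes lay above and 1 below without overlap, against 24.9% and 20.4% of all genes. Of the ER arm, 12 genes were lower and 3 higher, with a median of -0.39, and 10 lay below and 3 above without overlap. Of the 21 ATF4 arm genes, 5 were higher in both conditions (Cebpb, Sesn2, Psph, Slc7a11 and Slc3a2) and 0 lower in both, against 9.79% and 9.86% of all genes. Of the 18 ER arm genes, 3 were higher in both (Ern1, Atf6 and Dnajb9), 2 lower in both (Xbp1 and Sdf2l1), and 1, Manf, was higher in proliferating and lower in differentiating null cells. Intact differentiating replicates 2 and 4 had the highest ER arm means of their group, and without this pair, chosen after seeing the data, 7 ER arm genes were lower and 5 higher, with a median of -0.23.

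**Figure D2:**
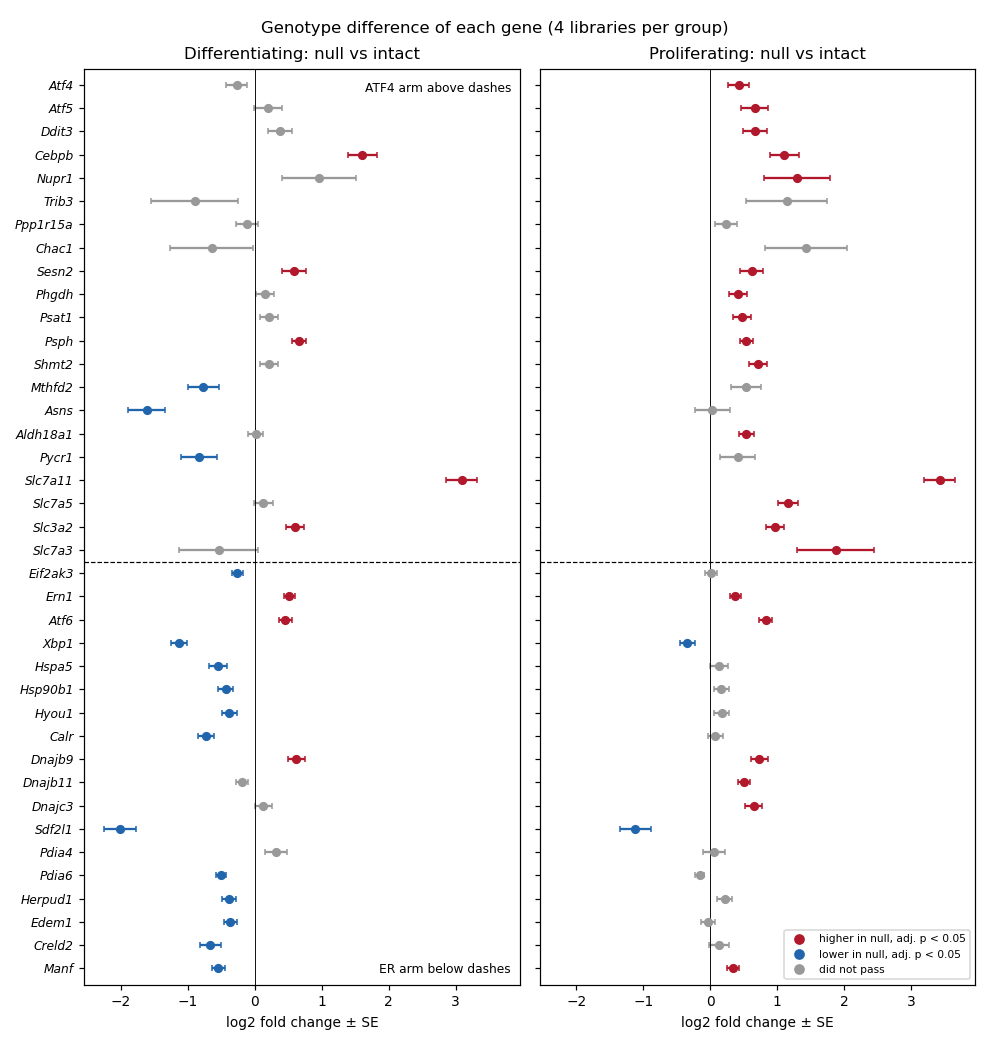
Log2 fold change of null over intact cells for each of the 39 genes, in differentiating (left) and proliferating cells (right); bars are standard errors, red points were higher and blue points lower in null cells in the edgeR test, and grey points did not pass. ATF4 arm points for proliferating cells all lie above 0, with Slc7a11 at 3.42, while most ER arm points for differentiating cells lie below 0, with Sdf2l1 at -2.02.

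Slc7a11 had the highest fold change of the 39 genes in both conditions. It encodes xCT, the light chain of the cystine and glutamate antiporter that supplies cysteine for glutathione (Entrez 26570, chromosome 3, 50364936 to 50499087 in GRCm38). In differentiating cells it had 184, 259.7, 194 and 204 CPM in null libraries, against 34.2, 26.2, 16.9 and 21.2 CPM in intact libraries. Proliferating null libraries had 297, 157, 158 and 200.04 CPM, against 18.8, 17.7, 18.1 and 20.9 CPM in intact proliferating libraries. Every null library was thus several times above every intact library in both conditions, with log2 fold changes of 3.09 ± 0.23 (edgeR adjusted p = 1.7e-07) and 3.42 ± 0.24 (edgeR adjusted p = 1.4e-07). Its response to differentiation did not pass in either genotype, at 0.05 ± 0.21 in null and 0.39 ± 0.22 in intact cells. Without intact differentiating replicate 3 the intact response passed (edgeR adjusted p = 0.0413).

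Slc3a2 encodes the heavy chain that pairs with both xCT and LAT1. It had 176, 197, 196 and 225.1 CPM in null differentiating libraries, against 143, 134, 108 and 139.8 CPM in intact differentiating libraries. Its proliferating values were 483, 328, 313 and 389.9 CPM in null and 165, 196, 188 and 225.4 CPM in intact libraries. The groups did not overlap in either condition, and both differences passed (log2 fold changes 0.60 ± 0.14, edgeR adjusted p = 0.0024, and 0.97 ± 0.14, edgeR adjusted p = 7.7e-05).

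Slc7a5, which encodes the large neutral amino acid transporter LAT1, was higher in null cells while they proliferated (Entrez 20539, chromosome 8, 121881146 to 121907686 in GRCm38). Proliferating null libraries had 748, 535, 512 and 515 CPM, against 205, 258, 260.1 and 312 CPM in intact libraries, and the higher null level passed (1.16 ± 0.15, edgeR adjusted p = 3.2e-05). Differentiating null libraries had 162, 163, 175 and 205 CPM, against 169, 162, 129.9 and 184 CPM in intact libraries, and these overlapped (0.13 ± 0.15, edgeR adjusted p = 0.5). The difference between these fold changes, called the interaction, which is the null response to differentiation less the intact one, itself passed, at -1.03 ± 0.21 (edgeR adjusted p = 0.0031). Slc7a3, a transporter of cationic amino acids, had 45.5, 26.9, 25.6 and 17.8 CPM in null and 7.995, 7.74, 6.82 and 9.09 CPM in intact proliferating libraries (1.87 ± 0.58, edgeR adjusted p = 0.018). In differentiating cells it ranged from 1.13 to 4.70 CPM in null and from 0.869 to 9.64 CPM in intact libraries. Its higher proliferating level missed the threshold without null proliferating replicate 1 (edgeR adjusted p = 0.0585). Its interaction, at -2.41 ± 0.82 (edgeR adjusted p = 0.046), missed it without any of 11 of the 16 libraries (edgeR adjusted p 0.0581 to 0.139).

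**Figure D3:**
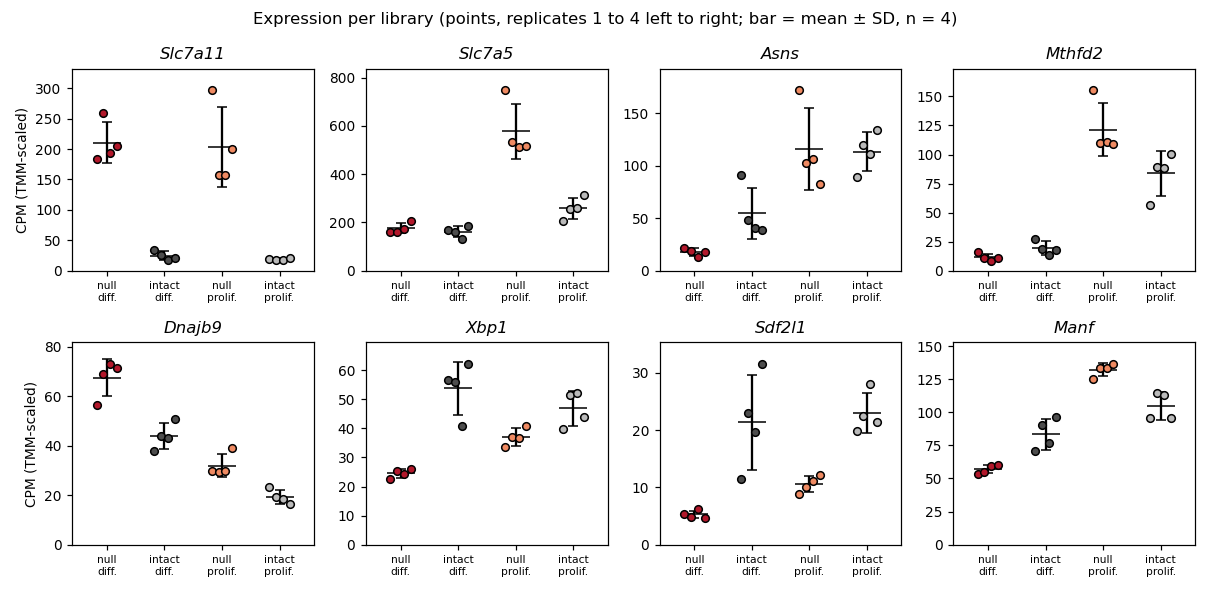
CPM of 8 of the 39 genes in each library, by group, on linear axes that start at 0; points are libraries, dashes group means and bars the SD over 4 libraries. Slc7a11 lies at 157 to 297 CPM in all null libraries and 16.9 to 34.2 CPM in all intact ones, while Sdf2l1 lies at 4.64 to 12.1 CPM in null and 11.5 to 31.5 CPM in intact libraries.

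All 5 transcription factor genes of the ATF4 arm were higher in null proliferating cells, with log2 fold changes of 0.42 to 1.29. Atf4 itself, whose protein level is set largely by translation, had 435, 315, 317 and 258 CPM in null proliferating libraries, against 216, 251, 255 and 266 CPM in intact proliferating libraries. The groups overlapped by 1 library on each side, and the log2 fold change was 0.42 ± 0.15 (edgeR adjusted p = 0.04). It missed the threshold without any of 7 of the 8 libraries compared (edgeR adjusted p 0.051 to 0.151). In differentiating cells Atf4 had 132, 126, 106 and 113 CPM in null and 186, 141, 132 and 117 CPM in intact libraries, again with overlap (-0.27 ± 0.15, edgeR adjusted p = 0.16).

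Cebpb, a bZIP partner of ATF4, was the one of the 5 that was higher in null cells in both conditions. It had 10.8, 13.1, 18.3 and 18.03 CPM in null differentiating libraries, against 4.98, 4.50, 4.43 and 5.87 CPM in intact differentiating libraries (1.60 ± 0.22, edgeR adjusted p = 3.4e-05). Proliferating null libraries had 14.6, 12.3, 13.3 and 10.1 CPM and intact ones 3.83, 6.01, 8.06 and 5.49 CPM (1.10 ± 0.22, edgeR adjusted p = 0.0011). Neither pair of groups overlapped. Ddit3, which encodes the pro-apoptotic factor CHOP, had 19.6, 12.7, 10.2 and 13.0 CPM in null and 7.37, 9.47, 9.16 and 9.05 CPM in intact proliferating libraries (0.66 ± 0.18, edgeR adjusted p = 0.0087), and 13.1 to 14.8 CPM in null and 8.15 to 12.9 CPM in intact differentiating libraries (0.38 ± 0.18, edgeR adjusted p = 0.095). Without intact differentiating replicate 1 the differentiating comparison passed (edgeR adjusted p = 0.0485).

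Atf5, a bZIP factor translated like ATF4, had 118, 87.9, 83.1 and 84.9 CPM in null proliferating libraries, against 51.7, 56.6, 64.0 and 64.1 CPM in intact proliferating libraries. All null values lay above all intact ones (0.66 ± 0.21, edgeR adjusted p = 0.02), and without null proliferating replicate 1 the test missed the threshold (edgeR adjusted p = 0.0689). Nupr1, a small chromatin protein induced by stress, was low, at 7.47, 3.70, 3.29 and 5.67 CPM in null and 1.11, 2.06, 2.35 and 2.70 CPM in intact proliferating libraries (1.29 ± 0.49, edgeR adjusted p = 0.049), and its call was lost without any of 7 of the 8 libraries (edgeR adjusted p 0.0536 to 0.14). In differentiating cells neither gene passed, with log2 fold changes of 0.20 and 0.96.

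Of the 4 feedback and effector genes, 1 passed. Sesn2 encodes sestrin 2, a leucine sensor that restrains mTORC1. It had 75.7, 73.0, 66.8 and 80.6 CPM in null differentiating libraries, against 39.3, 56.3, 43.6 and 58.3 CPM in intact differentiating libraries, without overlap (0.58 ± 0.17, edgeR adjusted p = 0.013). In proliferating cells null libraries had 192, 141, 144 and 166 CPM and intact libraries 68.0, 105, 113 and 131 CPM, also without overlap (0.62 ± 0.17, edgeR adjusted p = 0.011). Trib3, a pseudokinase that inhibits ATF4 and AKT, and Chac1, an enzyme that degrades glutathione, lay above all intact libraries in proliferating null cells but did not pass. A fit on the 8 proliferating libraries alone called both higher, and DESeq2 called Chac1. Trib3 had 17.1, 7.52, 6.86 and 7.63 CPM in null and 2.67, 4.33, 4.74 and 6.03 CPM in intact proliferating libraries (1.14 ± 0.60, edgeR adjusted p = 0.15). Chac1 had 43.3, 20.97, 20.3 and 17.4 CPM in null and 3.63, 9.31, 10.8 and 14.2 CPM in intact proliferating libraries (1.42 ± 0.61, edgeR adjusted p = 0.077). For both, null proliferating replicate 1 was well above its group. Ppp1r15a, which encodes GADD34, the subunit that directs a phosphatase to eIF2alpha, ranged from 15.9 to 22.4 CPM in null and 16.03 to 17.0 CPM in intact proliferating libraries and passed in neither condition (0.23 in proliferating and -0.12 in differentiating cells).

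The serine pathway was higher in proliferating null cells at each of its 3 steps. Phgdh, the first enzyme on the route from phosphoglycerate, had 229.5, 181, 192 and 169 CPM in null and 138, 145, 139 and 159 CPM in intact proliferating libraries (0.41 ± 0.14, edgeR adjusted p = 0.026), and it missed the threshold without any of 4 of the 8 libraries (edgeR adjusted p 0.0554 to 0.092). Psat1, the aminotransferase that follows, had 969.9, 936, 935 and 726 CPM in null and 567, 664, 655 and 684 CPM in intact proliferating libraries (0.47 ± 0.14, edgeR adjusted p = 0.013). Psph, the phosphatase that releases serine, had 95.2, 69.0, 74.1 and 71.7 CPM in null and 56.1, 52.6, 51.3 and 53.6 CPM in intact proliferating libraries (0.54 ± 0.10, edgeR adjusted p = 0.00063). For all 3 genes every null proliferating library lay above every intact one. In differentiating cells Psph was again higher in null cells, at 72.2, 80.5, 87.2 and 90.2 CPM in null and 47.6, 57.2, 50.1 and 54.4 CPM in intact libraries (0.66 ± 0.10, edgeR adjusted p = 8e-05). Phgdh and Psat1 did not pass there, with 0.15 and 0.21. With scaling by library size alone, the proliferating calls of Phgdh, Atf4 and Nupr1 were lost.

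The mitochondrial one-carbon enzymes downstream of serine parted. Shmt2, which splits serine into glycine and a one-carbon unit, had 448, 332, 346 and 247 CPM in null and 189, 213, 214 and 222 CPM in intact proliferating libraries, without overlap (0.71 ± 0.13, edgeR adjusted p = 0.00059). In differentiating cells it was at 68.2 to 83.7 CPM in null and 62.0 to 70.3 CPM in intact libraries (0.21 ± 0.13, edgeR adjusted p = 0.2). Mthfd2, the folate dehydrogenase and cyclohydrolase of dividing cells, was lower in null differentiating cells, at 16.01, 10.6, 8.69 and 10.9 CPM in null and 27.6, 19.1, 13.7 and 17.9 CPM in intact libraries (-0.77 ± 0.23, edgeR adjusted p = 0.014). Its highest null library lay above its lowest intact one, and without intact differentiating replicate 1 it missed the threshold (edgeR adjusted p = 0.0545). Its proliferating values were 155, 109.5, 111 and 109 CPM in null and 56.3, 89.7, 88.8 and 100.4 CPM in intact libraries, with no overlap but no call (0.53 ± 0.22, edgeR adjusted p = 0.073), although the fit on these 8 libraries alone called it higher. The interaction passed, at -1.30 ± 0.32 (edgeR adjusted p = 0.01).

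Asns and Pycr1, genes of asparagine and proline synthesis, were lower in differentiating null cells. Asns, which encodes asparagine synthetase and is a textbook ATF4 target, has the element shown above in its promoter window (Entrez 27053, chromosome 6, 7675165 to 7693209 in GRCm38). It had 21.3, 19.1, 13.2 and 18.3 CPM in null libraries, against 90.6, 48.7, 40.9 and 39.2 CPM in intact libraries, without overlap and with intact replicate 1 far above the others (-1.61 ± 0.28, edgeR adjusted p = 0.00024). In proliferating cells it had 172, 103, 106 and 82.6 CPM in null and 89.0, 119, 111 and 134 CPM in intact libraries, which overlapped (0.03 ± 0.27, edgeR adjusted p = 0.94). The interaction passed, at -1.64 ± 0.38 (edgeR adjusted p = 0.0067), and no single library or pair left out ended it. Pycr1, the last enzyme of proline synthesis, had 2.69, 2.54, 2.15 and 3.48 CPM in null and 7.38, 4.17, 4.39 and 3.39 CPM in intact differentiating libraries (-0.84 ± 0.27, edgeR adjusted p = 0.02), a call lost without intact replicate 1 or without null replicate 3 (edgeR adjusted p 0.0612 to 0.0843). Proliferating cells had 8.42 to 16.4 CPM in null and 6.9999 to 11.1 CPM in intact libraries (0.41 ± 0.26, edgeR adjusted p = 0.24). Aldh18a1, which makes the proline precursor, was higher in null proliferating cells instead, at 243, 182, 187 and 182 CPM in null and 123, 141, 140.2 and 143 CPM in intact libraries (0.53 ± 0.11, edgeR adjusted p = 0.0015), with 0.02 in differentiating cells.

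Slc7a11, Asns, Chac1, Pycr1 and Nupr1, whose promoter stretches are printed above, thus had log2 fold changes between null and intact proliferating cells of 3.42, 0.03, 1.42, 0.41 and 1.29, of which the first and the last passed. In differentiating cells their values were 3.09, -1.61, -0.65, -0.84 and 0.96. Of these 5 genes, Slc7a11 was higher and Asns and Pycr1 were lower in null differentiating cells. The other two genes with the element, Trib3 and Herpud1, had 1.14 and 0.21 in proliferating cells, where neither passed, and -0.90 and -0.39 in differentiating cells, where Herpud1 was lower.

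In the ER arm, the sensors and their substrate did not move together. Ern1, which encodes IRE1alpha, had 19.4, 18.4, 18.2 and 18.4 CPM in null differentiating libraries, against 11.6, 13.3, 13.8 and 13.4 CPM in intact differentiating libraries (0.51 ± 0.08, edgeR adjusted p = 0.00011). Proliferating null libraries had 11.3, 11.8, 10.8 and 11.2 CPM and intact ones 8.53, 8.55, 8.43 and 9.27 CPM (0.37 ± 0.08, edgeR adjusted p = 0.0022). Neither pair of groups overlapped. Atf6 had 84.3, 84.4, 88.5 and 85.8 CPM in null and 50.2, 65.4, 64.7 and 69.5 CPM in intact differentiating libraries (0.46 ± 0.09, edgeR adjusted p = 0.00097). Atf6 in proliferating cells had 88.2, 81.5, 73.4 and 97.0 CPM in null and 49.9, 47.4, 47.3 and 47.5 CPM in intact libraries (0.82 ± 0.09, edgeR adjusted p = 1.1e-05), again without overlap.

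Xbp1, whose mRNA IRE1alpha splices, went opposite to both (Entrez 22433, chromosome 11, 5520641 to 5525993 in GRCm38). It had 22.6, 25.3, 24.3 and 25.9 CPM in null differentiating libraries, against 56.5, 55.8, 40.8 and 62.1 CPM in intact differentiating libraries, without overlap (-1.13 ± 0.12, edgeR adjusted p = 3.8e-06). In proliferating cells it had 33.6, 37.0, 36.6 and 40.9 CPM in null and 39.7, 51.6, 52.2 and 44.02 CPM in intact libraries, which overlapped (-0.34 ± 0.12, edgeR adjusted p = 0.034), a call lost without any of 5 of the 8 libraries (edgeR adjusted p 0.0637 to 0.102). The interaction passed, at -0.79 ± 0.17 (edgeR adjusted p = 0.0039). Counts per gene do not tell spliced from unspliced Xbp1 mRNA. Eif2ak3, which encodes PERK, had 48.8, 50.6, 53.4 and 53.0 CPM in null and 72.1, 60.9, 52.7 and 61.4 CPM in intact differentiating libraries, which overlapped (-0.26 ± 0.08, edgeR adjusted p = 0.018). That call was lost without intact replicate 1 or without null replicate 1 (edgeR adjusted p 0.0519 to 0.0559), or without intact replicates 2 and 4 (edgeR adjusted p = 0.0552), and the proliferating fold change was 0.01.

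Sdf2l1 and Dnajb9, both partners of the chaperone BiP, lay on opposite sides. Sdf2l1 had the lowest fold change of the ER arm in both conditions, and Dnajb9 the highest in differentiating cells and, after Atf6, the next in proliferating cells. Sdf2l1, an ER co-chaperone that keeps clients soluble, had 5.41, 4.90, 6.18 and 4.64 CPM in null differentiating libraries, against 11.51, 23.0, 19.6 and 31.5 CPM in intact differentiating libraries (-2.02 ± 0.23, edgeR adjusted p = 8.9e-06; Entrez 64136, chromosome 16, 17130138 to 17132383 in GRCm38). Proliferating null libraries had 8.86, 10.1, 11.1 and 12.1 CPM and intact ones 19.9, 22.4, 28.0 and 21.5 CPM (-1.12 ± 0.23, edgeR adjusted p = 0.0013). All null libraries lay below all intact libraries of the same condition. Dnajb9, which encodes ERdj4, a J-domain protein that brings BiP to IRE1alpha, had 56.4, 69.2, 73.0 and 71.5 CPM in null and 37.8, 44.004, 43.1 and 50.7 CPM in intact differentiating libraries (0.62 ± 0.13, edgeR adjusted p = 0.00094; Entrez 27362, chromosome 12, 44205897 to 44210068 in GRCm38). Dnajb9 in proliferating cells had 29.8, 29.3, 29.9 and 38.9 CPM in null and 23.2, 19.3, 18.3 and 16.3 CPM in intact libraries (0.73 ± 0.13, edgeR adjusted p = 0.00044). For Dnajb9 all null libraries lay above all intact ones in both conditions.

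The abundant chaperones were lower in null differentiating cells and did not pass in proliferating cells. Hspa5, which encodes BiP, the HSP70 of the ER, had 259, 283, 309 and 311 CPM in null and 331, 482, 333 and 552 CPM in intact differentiating libraries (-0.55 ± 0.14, edgeR adjusted p = 0.0046). Hsp90b1, which encodes GRP94, the HSP90 of the ER, had 302, 312, 329.6 and 344 CPM in null and 367, 489.8, 361 and 521 CPM in intact differentiating libraries (-0.43 ± 0.11, edgeR adjusted p = 0.005). Calr, the lectin chaperone calreticulin, had 298, 327, 325 and 335 CPM in null and 404, 601, 492 and 637 CPM in intact differentiating libraries (-0.73 ± 0.11, edgeR adjusted p = 0.00011). For these 3 genes no null library reached an intact one, although the intact libraries spread widely, with replicates 2 and 4 the highest. Hyou1, an exchange factor for BiP, had 96.2 to 101 CPM in null and 102 to 159 CPM in intact differentiating libraries (-0.38 ± 0.11, edgeR adjusted p = 0.011). Without intact differentiating replicates 2 and 4 the log2 fold changes of Hspa5, Hsp90b1 and Hyou1 were -0.19, -0.17 and -0.13, and none of these passed (edgeR adjusted p = 0.116, 0.136 and 0.249), while Calr still passed. In proliferating cells the log2 fold changes of Hspa5, Hsp90b1, Calr and Hyou1 were 0.13, 0.17, 0.08 and 0.17.

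The remaining J-domain co-chaperones were higher in proliferating null cells and did not pass in differentiating cells. Dnajb11, which encodes ERdj3, had 117, 119.9, 115 and 120.997 CPM in null and 82.6, 86.8, 83.4 and 80.2 CPM in intact proliferating libraries (0.51 ± 0.09, edgeR adjusted p = 0.00058). Dnajc3, an ER J-domain protein also named as an inhibitor of eIF2alpha kinases, had 123, 141, 139 and 129.8 CPM in null and 80.5, 91.5, 85.6 and 82.3 CPM in intact proliferating libraries (0.65 ± 0.13, edgeR adjusted p = 0.0012). All null proliferating libraries lay above all intact ones for both genes. In differentiating cells their values were -0.19 and 0.13, neither of which passed, although Dnajb11 was lower without intact replicate 1 (edgeR adjusted p = 0.00746). The interaction was -0.70 ± 0.13 for Dnajb11 (edgeR adjusted p = 0.0017) and -0.52 ± 0.18 for Dnajc3 (edgeR adjusted p = 0.054). The interaction of Dnajc3 did pass without intact differentiating replicate 1 or null differentiating replicate 3 (edgeR adjusted p 0.00425 to 0.0365), and with DESeq2, the block on replicate number and the stricter filter.

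Manf, a secreted neurotrophic factor that binds BiP, changed side between the conditions (Entrez 74840, chromosome 9, 106888753 to 106891938 in GRCm38). It had 53.7, 55.2, 59.4 and 60.3 CPM in null differentiating libraries, against 70.6, 90.2, 76.9 and 96.1 CPM in intact differentiating libraries (-0.55 ± 0.09, edgeR adjusted p = 0.00023). Proliferating null libraries had 125, 134, 133 and 136 CPM and intact ones 95.3, 114, 113 and 96.0 CPM (0.34 ± 0.09, edgeR adjusted p = 0.0098). Neither pair overlapped, and the interaction, -0.88 ± 0.13 (edgeR adjusted p = 0.00037), had the lowest adjusted p of the 39 genes. Creld2, an ER stress-induced secreted protein, had 16.04, 18.6, 18.1 and 17.0 CPM in null and 18.4, 30.5, 24.5 and 37.1 CPM in intact differentiating libraries, which overlapped (-0.66 ± 0.15, edgeR adjusted p = 0.0024), and 0.13 in proliferating cells. Without intact differentiating replicates 2 and 4, neither its differentiating difference (-0.29, edgeR adjusted p = 0.0504) nor its interaction (edgeR adjusted p = 0.0502) passed.

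Disulfide isomerases and degradation factors completed the arm. Pdia6 had 135, 142, 137 and 134 CPM in null and 201, 203, 167 and 208 CPM in intact differentiating libraries, without overlap (-0.51 ± 0.07, edgeR adjusted p = 3.3e-05), while its proliferating value of -0.16 did not pass (edgeR adjusted p = 0.082) unless intact replicate 4 was left out (edgeR adjusted p = 0.0453). Pdia4 passed in neither condition, with 0.31 in differentiating and 0.05 in proliferating cells, but was higher in null differentiating cells without intact replicate 4 (edgeR adjusted p = 0.0242). Herpud1, an ER membrane protein of the degradation complex, had 27.8, 25.0, 22.4 and 23.3 CPM in null and 36.5, 31.9, 28.3 and 32.0 CPM in intact differentiating libraries (-0.39 ± 0.11, edgeR adjusted p = 0.0087). Edem1, which hands misfolded glycoproteins to degradation, had 32.9, 34.2, 29.7 and 28.3 CPM in null and 44.5, 37.1, 38.3 and 40.9 CPM in intact differentiating libraries (-0.36 ± 0.10, edgeR adjusted p = 0.0085). Both genes were without overlap there and did not pass in proliferating cells (0.21 and -0.04).

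**Figure D4:**
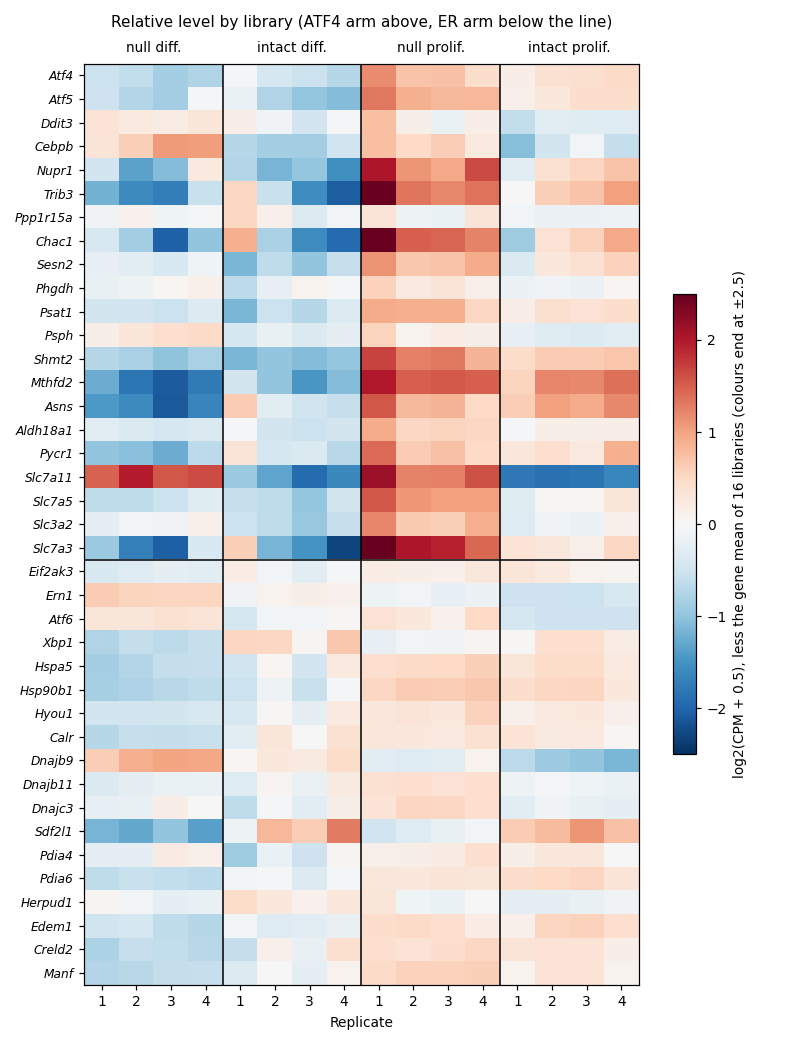
Log2(CPM + 0.5) of each of the 39 genes in each of the 16 libraries, less the mean of that gene over all 16; rows are genes by role and columns are libraries by group. The ATF4 arm is highest in the null proliferating columns, most of all in replicate 1 with an arm mean of 1.33, and the Slc7a11 row is above its mean in both null groups and below it in both intact groups.

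The ATF4 arm was lower in differentiating than in proliferating cells of both genotypes. The 2 conditions also differed in medium and in culture on laminin, and the parts of these cannot be told apart. In null cells 16 of its 21 genes fell on differentiation and 0 rose, with a median log2 fold change of -1.48, while 69.0% of all genes passed, 34.6% higher and 34.4% lower (edgeR quasi-likelihood test). In intact cells 12 fell and 0 rose, with a median of -0.78, while 72.0% of all genes passed, 36.7% higher and 35.3% lower. The lowest values in null cells were -3.48 ± 0.62 for Slc7a3 (edgeR adjusted p = 0.00014), -3.45 ± 0.67 for Trib3 (edgeR adjusted p = 3e-04) and -3.40 ± 0.25 for Mthfd2 (edgeR adjusted p = 1.7e-08). In intact cells the corresponding values were -1.07, -1.41 and -2.09, of which Mthfd2 passed. Without intact differentiating replicate 1, Slc7a3, Trib3 and Chac1 also fell in intact cells (edgeR adjusted p = 0.000834, 0.00187 and 0.00381). Shmt2 fell in both genotypes, by 2.16 in null and 1.66 in intact cells on the log2 scale (edgeR adjusted p = 3.8e-09 and 5e-08). Psph, Ddit3, Cebpb, Ppp1r15a and Slc7a11 passed in neither genotype. Phgdh fell in null cells, a call lost without any of 3 of the 8 libraries (edgeR adjusted p 0.0776 to 0.115). Over the same contrasts, 10 of 10 cycling cell markers fell in both genotypes, with summed levels of 443 to 521 CPM in null differentiating and 2305 to 2773 CPM in null proliferating libraries, and of 217 to 340 CPM in intact differentiating and 2912 to 3402 CPM in intact proliferating libraries. Their part in the fall of the ATF4 arm was not tested.

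The ER arm fell less uniformly. In null cells 13 of its 18 genes (72.2%) fell and 2 rose on differentiation, with a median of -0.72. Over all genes 34.4% fell and 34.6% rose there. In intact cells 8 (44.4%) fell and 4 rose, with a median of -0.16, while 35.3% of all genes fell and 36.7% rose. The intact share that fell was thus not far from that over all genes. Dnajb9 and Ern1 rose in both genotypes (log2 fold changes 1.08 and 0.72 in null and 1.19 and 0.58 in intact cells). Hsp90b1 and Hspa5 fell in both, Hsp90b1 by 1.34 in null and 0.74 in intact cells and Hspa5 by 1.18 in null and 0.51 in intact cells. Calr fell in null cells (-0.90 ± 0.11, edgeR adjusted p = 5.2e-06) and did not pass in intact cells (-0.09 ± 0.11, edgeR adjusted p = 0.47). Herpud1 and Atf6 rose in intact cells (0.48 and 0.38) and were at -0.13 and 0.01 in null cells. The intact falls of Eif2ak3 and Hyou1 were not stable to leaving out single libraries of either group. They were lost without any of 4 (edgeR adjusted p 0.0575 to 0.102) and of 5 (edgeR adjusted p 0.0512 to 0.143) of the 8. Without intact differentiating replicates 2 and 4 the intact median was -0.43.

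The interaction, which sets the null response against the intact one, was below 0 for most of the set. Of the ATF4 arm 7 genes passed with a negative interaction (Atf4, Mthfd2, Asns, Aldh18a1, Pycr1, Slc7a5 and Slc7a3) and 0 with a positive one, and of the ER arm 10 (Xbp1, Hspa5, Hsp90b1, Hyou1, Calr, Dnajb11, Pdia6, Herpud1, Creld2 and Manf) and 0, at an edgeR adjusted p under 0.05. Over all genes 22.7% passed, 12.7% positive and 9.93% negative. Median values were -0.46 over the ATF4 arm, -0.58 over the ER arm and 0.04 over all genes. The ATF4 arm count was 4 without null proliferating replicate 1, 4 without intact proliferating replicate 2 and 3 without null differentiating replicate 3, while that of the ER arm was 10 to 13 without any single library. The single-library losses were Atf4 (edgeR adjusted p 0.0501 to 0.0638 without any of 6 of 16 libraries), Pycr1 (0.0519 to 0.0597, edgeR, 5 of 16), Aldh18a1 (edgeR adjusted p = 0.0529, 1 of 16) and Slc7a3 as given above. A block on genotype and replicate number ended the interaction calls of Aldh18a1, Atf4, Pycr1, Slc7a3 and, in the ER arm, Pdia6. Without intact differentiating replicates 2 and 4 the ER arm median was -0.33 and 6 of its genes passed with a negative value (all but Creld2, Hspa5, Hyou1 and Pdia6) and 1, Pdia4, with a positive one (edgeR adjusted p = 0.033).

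**Figure D5:**
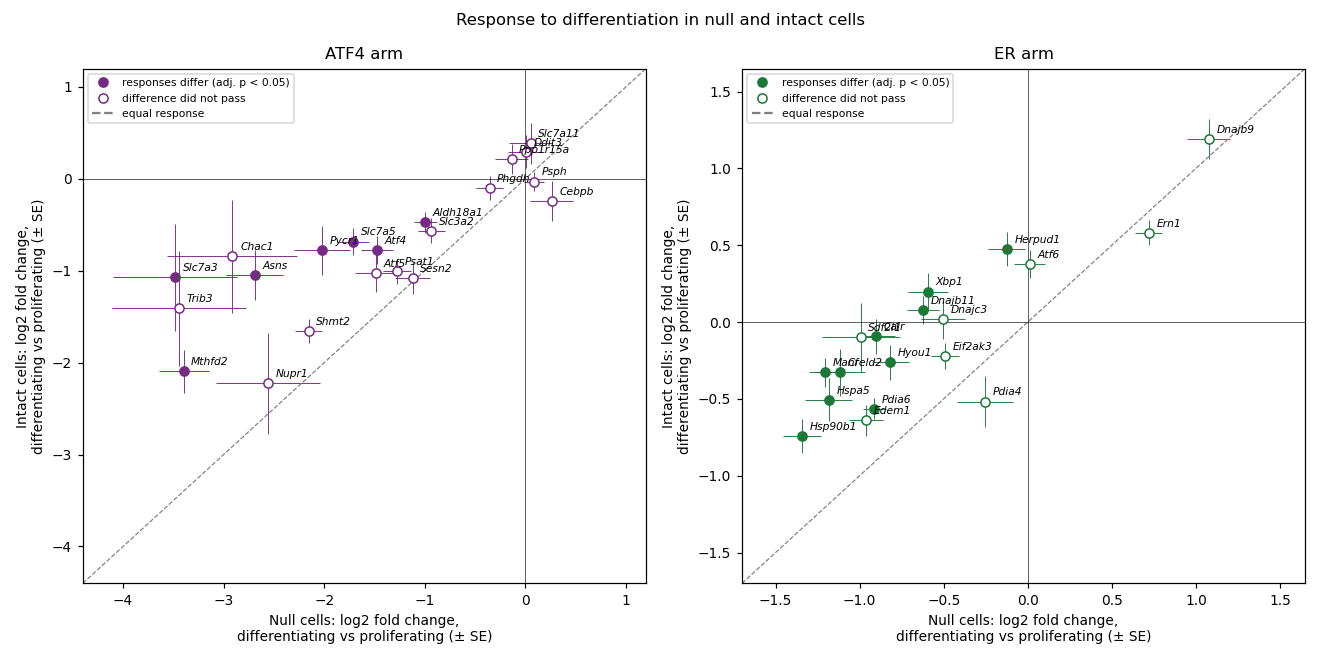
Log2 fold change on differentiation in null cells against that in intact cells, for each of the 39 genes, with the line of equal response; both axes use 1 fit of all 16 libraries. The left panel holds the ATF4 arm and the right panel the ER arm, null cells are on the horizontal axis, bars are standard errors, and filled points mark genes whose interaction passed in edgeR. All filled points lie above and to the left of the line, where the null value is below the intact one, Slc7a3 farthest at -3.48 in null and -1.07 in intact cells.

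Compared per length, the set spanned a wide range of levels. In null proliferating cells Psat1 was the highest member at 358 CPM per kilobase of gene model, followed by Calr at 309, Hsp90b1 at 296 and Hspa5 at 252 CPM per kilobase. The lowest were Ern1 at 2.84 and Pycr1 at 3.78 CPM per kilobase. In intact proliferating cells Calr, at 293, stood above Hsp90b1 at 264, Psat1 at 258 and Hspa5 at 231 CPM per kilobase. Slc7a11 was at 21.99 CPM per kilobase in null and 2.05 in intact proliferating cells, and its heavy chain partner Slc3a2 at 128 in null and 65.5 CPM per kilobase in intact proliferating cells. The transporter gene with the highest fold change was therefore present at a lower level than its partner in both genotypes.

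Other genes of these pathways were taken from lists fixed by name, and their counts are to be read against the 24.3% higher and 22.0% lower of all genes in differentiating cells and the 19.0% and 19.7% in proliferating cells. For the kinase, synthetase and other ATF4 target lists, 3 of 12, 5 of 20 and 4 of 17 genes were higher in proliferating null cells, shares near that over all genes. Of 12 genes for eIF2alpha kinases, initiation factors and their regulators, 5 were higher and 2 lower in null differentiating cells (edgeR). In null proliferating cells 3 were higher and 0 lower, and this 0 was the same unadjusted and with DESeq2. Eif2ak2, which encodes PKR, the kinase activated by double-stranded RNA, had 35.8, 40.7, 58.6 and 48.4 CPM in null and 9.96, 15.6, 12.8 and 17.2 CPM in intact differentiating libraries (1.73 ± 0.17, edgeR adjusted p = 2.1e-06). Eif2ak2 in proliferating cells had 53.7, 52.0, 52.5 and 42.2 CPM in null and 24.2, 19.6, 20.1 and 21.8 CPM in intact libraries (1.22 ± 0.17, edgeR adjusted p = 5.8e-05), and the null libraries lay above the intact ones in both conditions. Impact, whose protein competes with the kinase GCN2 for its activator, was higher in null proliferating cells (0.68 ± 0.13, edgeR adjusted p = 0.001).

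Of 20 cytosolic aminoacyl-tRNA synthetase genes, which ATF4 is known to raise, 1 was higher and 5 lower in null differentiating cells, and 5 higher and 3 lower in null proliferating cells (median log2 fold changes -0.12 and 0.16). Wars1 and Eprs1 were higher in null proliferating cells (0.59 ± 0.07, edgeR adjusted p = 1.5e-05, and 0.54 ± 0.09, edgeR adjusted p = 0.00022), and Qars1 was lower in both conditions (-0.52 in differentiating and -0.40 in proliferating cells). On differentiation 19 of the 20 fell in null and 16 in intact cells, as did 34.4% and 35.3% of all genes. Of 17 other ATF4 target genes that passed the filter (18 listed), 3 were higher and 4 lower in null differentiating and 4 higher and 1 lower in null proliferating cells. Vldlr, a lipoprotein receptor gene raised by ATF4, was on opposite sides, with 66.3, 59.5, 65.4 and 80.4 CPM in null and 141, 109, 106 and 110.2 CPM in intact differentiating libraries (-0.78 ± 0.13, edgeR adjusted p = 0.00023). In proliferating cells it had 179, 120.7, 122 and 143 CPM in null and 62.7, 70.6, 70.5 and 79.0 CPM in intact libraries (0.999 ± 0.13, edgeR adjusted p = 4.3e-05; interaction -1.78 ± 0.19, edgeR adjusted p = 3.2e-05).

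Slc7a11 is also a known target of NRF2, the factor of the oxidative stress response. Of 13 NRF2 and glutathione genes 11 were higher and 0 lower in null differentiating cells, and 10 higher and 0 lower in null proliferating cells, with medians of 0.74 and 0.45 (edgeR; both counts of 0 were the same unadjusted and with DESeq2). Srxn1, which repairs oxidised peroxiredoxins, had 38.99, 55.8, 70.4 and 66.3 CPM in null and 20.8, 19.1, 18.5 and 14.9 CPM in intact differentiating libraries (1.66 ± 0.19, edgeR adjusted p = 7.5e-06). Srxn1 in proliferating cells had 91.4, 66.4, 62.5 and 89.8 CPM in null and 15.9, 10.8, 11.1 and 11.97 CPM in intact libraries (2.64 ± 0.20, edgeR adjusted p = 2.9e-07). Both subunits of the enzyme that starts glutathione synthesis were higher in proliferating null cells, Gclc by 0.98 ± 0.09 and Gclm by 0.99 ± 0.09 (edgeR adjusted p = 1.5e-06 and 2.2e-06), and Hmox1, heme oxygenase, was higher in differentiating null cells (2.25 ± 0.22, edgeR adjusted p = 1.9e-06). The null libraries lay above all intact ones for each of these. The antioxidant response element, searched as TGACNNNGC on both strands, occurred for 6 of the 19 ATF4 arm genes, for 4 of the 15 ER arm genes and for 14% of all genes (12.4% of all windows). It was not found in the window of Slc7a11.

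Of 15 other serine, glycine and folate enzymes 8 were higher and 1 lower in null differentiating cells, and 4 higher and 3 lower in null proliferating cells. Aldh1l2, the mitochondrial enzyme that oxidises formyl-folate, had 228, 140.1, 132 and 125 CPM in null and 48.5, 55.6, 54.4 and 59.6 CPM in intact proliferating libraries (1.52 ± 0.20, edgeR adjusted p = 3.1e-05). The glycine cleavage genes were divided, with Gldc higher in null differentiating cells (0.94 ± 0.09, edgeR adjusted p = 1.2e-06) and Amt lower in both conditions (-0.85 in differentiating and -1.71 in proliferating cells, edgeR adjusted p = 0.00037 and 1.9e-06). Of 19 other ER folding, translocation and degradation genes that passed the filter (20 listed), 6 were higher and 0 lower in null differentiating and 10 higher and 0 lower in null proliferating cells. Ero1a, the oxidase that recharges disulfide isomerases, was higher in both (0.54 ± 0.11, edgeR adjusted p = 0.00098, and 1.09 ± 0.11, edgeR adjusted p = 3.4e-06). DESeq2 called 2 of these 19 lower in null differentiating cells and 0 in proliferating cells, and at an unadjusted p under 0.05 edgeR gave 0 in both. Among 9 other ER stress regulators, 3 were higher and 3 lower in null differentiating and 6 higher and 1 lower in null proliferating cells. Creb3l2, an ATF6-like factor, was lower in differentiating (-1.29 ± 0.20, edgeR adjusted p = 8.8e-05) and higher in proliferating null cells (0.65 ± 0.19, edgeR adjusted p = 0.016).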

How the data were processed

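Each of the 16 libraries (4 groups of 4) came as a deposited file of raw read counts for every gene model, with that model's length in bases per the file headers. Per the submitters' processing notes, bcl2fastq demultiplexed the reads and featureCounts made the counts, on build mm10. Not given in the sources used here: tool versions, aligner, annotation and strand setting. Overlapping or antisense genes may therefore share reads. A table that joins the 16 libraries was left out.

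RefSeq's GRCm38 table gave symbols and positions for 25275 of the 27179 Entrez identifiers. The edgeR 4.0.16 package in R 4.3.3 was used: filterByExpr (minimum count 10) left 15177 genes, trimmed mean of M values (TMM) set the scaling, and all 16 libraries entered 1 quasi-likelihood fit of group means without covariates (12 residual degrees of freedom). The 5 contrasts set null against intact cells in either condition, differentiating against proliferating cells in either genotype, and 1 response against the other (interaction). A call needs a Benjamini-Hochberg adjusted p under 0.05 over all genes tested. Each SE divides the unshrunk estimate by the square root of F. Fold changes are log2 and relative to the other genes, since no spike-in is described. Log2 CPM for arm means used a prior count of 2. Depth was 16.8 to 47.9 M counts per library, and p-values measure the spread between the libraries given as replicates.

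The members, gene lists, tests and alternatives were chosen with earlier results of these data known. The rule for named genes allowed all 39 members and Kat7, with per-library values for members called in a genotype contrast or the interaction, and from each companion list up to 4 called genes per genotype contrast with the lowest adjusted p. Kat7 was checked in every library first. No library was a copy of another. Same-numbered libraries of 2 groups were not taken as pairs, since the labels do not say that the numbers pair them. Their deviations from group means correlated at -0.231 to 0.126 over the 4 pairs of groups compared, which cannot show whether they shared a foetus. The fit was first tested on simulated data with known changes in null proliferating cells. It called 40.3% of 67 genes changed 1.5-fold, 73.1% of 67 changed 2-fold and 95.45% of 66 changed 4-fold. Of 14801 unchanged genes it called 6. A gene that did not pass may thus still differ. Far fewer genes were changed there than the 5864 called between genotypes in proliferating cells here. Alternatives were DESeq2 1.42.0, other scalings and filters, a test against 1.5-fold, fits on 8 libraries, replicate blocks and leaving out libraries. Library size scaling turned the share of lower calls among called genes to 63.3% in proliferating and 60.6% in differentiating cells, against 50.9% and 47.5% here, and moved the median of all genes by less than 0.1.

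Promoter windows of RefSeq (GRCm38.p6) were searched on both strands. Some members are not in that table and are named only.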

Additional observations from a re-analysis of the deposited data

Results flagged for a closer look

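In 164 groups of 4 libraries checked (39 genes and the arm means), 16 had 1 library apart from the other 3, by a gap of most of the group's range. Chance alone sets about 1 in 20 groups apart. Of the 16, null proliferating replicate 1 held 7, all as the highest of its group: Atf5 at 118 CPM, Trib3 at 17.1 CPM, Chac1 at 43.3 CPM, Mthfd2 at 155 CPM, Aldh18a1 at 243 CPM and Slc7a5 at 748 CPM, and the ATF4 arm mean at 1.33. Null proliferating replicate 4 held 4: Psat1, its lowest, at 726 CPM, and, as the highest, Hyou1 at 199 CPM, Dnajb9 at 38.9 CPM and the ER arm mean at 0.24. The remaining ones were in intact cells. Aldh18a1 was at 123 CPM in intact differentiating replicate 1, the highest of its group, and at 123 CPM in intact proliferating replicate 1, the lowest of its group. Ern1 was highest in intact proliferating replicate 4 at 9.27 CPM and Atf6 in intact proliferating replicate 1 at 49.9 CPM. Pdia6 was lowest in intact differentiating replicate 3 at 167 CPM.

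The response to differentiation differed between null and intact cells in 17 members by the interaction term of edgeR's quasi-likelihood test, all with a lower value in null cells. In the ATF4 arm these were Slc7a3 at -2.41, Asns at -1.64, Mthfd2 at -1.30, Pycr1 at -1.24, Slc7a5 at -1.03, Atf4 at -0.70 and Aldh18a1 at -0.52 on the log2 scale. In the ER arm they were Manf at -0.88, Calr at -0.81, Xbp1 at -0.79, Creld2 at -0.79, Dnajb11 at -0.70, Hspa5 at -0.68, Herpud1 at -0.60, Hsp90b1 at -0.60, Hyou1 at -0.55 and Pdia6 at -0.35.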

How the results depend on the processing

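Over 28 alternative settings, 3750 of 4017 alternative values of single members left the call as it was. Another 198 lost a call, 69 gained one and 0 reversed a called direction, while 82 changed sign in members called in neither fit. The ATF4 arm median stayed above 0 between genotypes in proliferating cells, at 0.53 to 0.71 without any single library, where 10 to 14 members were higher. Tested against a minimum of 1.5-fold, 1645 genes passed for null against intact in proliferating cells, 2641 in differentiating cells, 5150 for differentiation in null cells, 5730 in intact cells and 766 for the interaction. Of the ATF4 arm 4 were then higher in proliferating, and 2 higher and 1 lower in differentiating null cells, 7 fell on intact differentiation and 1 had a lower interaction. Of the ER arm 1 was then higher and 1 lower in proliferating, and 0 higher and 2 lower in differentiating null cells, 1 rose and 0 fell on intact differentiation and 0 had a lower interaction. This test asks for a larger change, so fewer pass.

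The replicate block with number across the 4 groups gave 14 higher ATF4 arm genes in proliferating null cells and 6 lower interactions, and the isolate replicate block (genotype and number) gave 3 lower interactions. For the other arm counts, no replicate block moved a count by more than 1.5 times. Same-numbered libraries correlated at over 0.1 in 3 of the 4 intact pairs and 0 of the 4 null pairs of differentiating and proliferating libraries, and 2 of the 4 intact differentiating libraries correlated best with the proliferating library of their own number. Without intact proliferating 1 and intact differentiating 1 there were 4 lower ATF4 arm interactions. Among pairs chosen after seeing the data, leaving out null proliferating 1 and intact proliferating 1 gave 7 higher ATF4 arm genes in proliferating null cells, 3 lower interactions and 1 gene that rose on null differentiation. Leaving out intact differentiating 2 and 4 gave ER arm medians of -0.230 between genotypes, -0.433 for intact differentiation and -0.326 for the interaction. The ER arm then had 5 higher and 7 lower genes in differentiating null cells, and 1 higher and 6 lower interactions.

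Leaving out single libraries, the ATF4 arm had 0 to 1 genes that rose on intact and 0 to 1 on null differentiation, 3 to 9 lower interactions and 1 to 3 lower genes in differentiating null cells, with 1 left without intact differentiating replicate 1. The ER arm had 1 to 3 lower genes in proliferating null cells and an intact differentiation median of -0.286 to -0.0734. Taking the median over members in place of the mean gave an ER arm value of -0.732 in null differentiating cells, against a mean of -0.416. The cause of these shifts was not tested. The isolate block could not be fitted to a genotype contrast, nor an 8-library fit to the interaction. Chac1, Trib3, Slc7a3 and Nupr1 had the widest standard errors between genotypes in proliferating cells.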
